A study of Homo sapiens with 6 samples.

Results

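The genes described here are the kinases and phosphatases that act first when the T-cell receptor is engaged. They are the kinase genes LCK, FYN, ZAP70, TXK and CSK, the phosphatase genes PTPN22, PTPN6 and PTPRC, and PAG1, which encodes a membrane anchor for CSK. The 9 genes were taken by name, with no threshold on their values but with earlier results of these data known. All 9 were among the 58096 genes counted. They were followed in the ALL-SIL line, derived from a human acute lymphoblastic leukaemia of the T lineage, so both groups carry its TLX1 rearrangement and its kinase fusion NUP214-ABL1. The first group was 3 libraries of cells given JQ1, a small-molecule inhibitor of the BET bromodomain proteins, at 1 µM for 24 h, and the second was 3 libraries labelled DMSO, the solvent. The labels give 20% serum for both groups. The treatment text repeats the JQ1 dose for the DMSO samples, so the groups rest on the sample titles. Nothing in the labels says that the replicates were separate cultures, so a p-value here weighs a difference against the scatter of libraries that may be only technical copies.

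When the T-cell receptor binds its ligand, LCK and FYN phosphorylate tyrosines in the tails of the CD3 and zeta chains, and ZAP70 docks there and phosphorylates the adaptors that carry the signal on. LCK and FYN are themselves held in check by CSK, which phosphorylates an inhibitory tyrosine near their C-terminal end, while PTPRC, the surface phosphatase CD45, removes that phosphate. PTPN22 and PTPN6 (SHP-1) dephosphorylate the active kinases and their substrates. In developing thymocytes the same enzymes read the pre-T-cell receptor and set the thresholds of selection.

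Of the 9 genes, 7 fell, FYN rose, and PAG1 was too low to test. The falls ranged from 1.49-fold for CSK to 4.01-fold for PTPN22. Genes of the activating kinases LCK, ZAP70 and TXK and genes of the restraining enzymes CSK, PTPN22 and PTPN6 were all among those that fell in these bulk libraries. Differences were tested with edgeR's quasi-likelihood test over 13975 genes at a Benjamini-Hochberg adjusted p of 0.05. By that rule 20.6% of all tested genes were lower under JQ1 and 15.9% were higher. The 8 tested members each had at least 26 reads in every library, so none entered the test through 1 group alone. Their groups did not overlap in any of the 8 cases, which was so for 26% of tested genes in the lower direction and 22.9% in the higher. A call with a log2 change of -1 or below was reached by 5 of the 8 members and by 7.61% of tested genes. With the replicate number as a block the members called were again 7 lower and 1 higher, against 29.6% and 27.3% of tested genes, and against a change of 1.5-fold they were 6 lower and 0 higher, against 6.43% and 1.76%. The median log2 change was -1.67 over the 8 members and 0.00 over all tested genes. Because the members were chosen with earlier results known, these comparisons with all tested genes are a description and not an independent test.

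Gene counts per library ran from 15925885 to 25293884. Levels are given in CPM, the usual depth-normalised read count, here with scaled library sizes, and fold changes come from the fit. MYC and HEXIM1, RNAs that commonly respond to BET inhibition, had log2 changes of -1.41 and 1.59. Of the 7 T-lineage markers, CD3D, CD3E, CD3G and CD7 had at least 70.3 CPM in every library. CD2 had 24 to 49 reads in DMSO and 0 to 3 in JQ1, the thymocyte marker CD1A 199 to 382 reads and 6 to 9, and TLX1, which marks this leukaemia, 164 to 192 CPM and 239 to 256 CPM. Markers of myeloid, NK, erythroid, epithelial and stromal cells summed to at most 0.471 CPM per list in any library, and MPO, CD33, NCAM1, HBB and DCN had no read. The 5 B-cell markers, with CD79A the main part, summed to between 4.40 and 12.6 CPM in DMSO and between 0.709 and 5.25 CPM in JQ1, with MS4A1 at 0, and their part in the results was not tested. In bulk RNA, fewer cells that express a gene and less RNA per cell cannot be told apart.

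LCK, the kinase that rides on the CD4 and CD8 coreceptors, had the highest level per length of the 9 genes in DMSO. Its level was 321, 314 and 308 CPM in DMSO replicates 1, 2 and 3, and 87.6, 103 and 68.9 CPM in JQ1 replicates 1, 2 and 3. Every JQ1 library lay below every DMSO library, and the highest JQ1 value was 2.98-fold under the lowest DMSO value. The fall was 3.63-fold (95% interval 2.95 to 4.46, n = 3 per group, edgeR adjusted p = 1.31e-05). The DMSO libraries differed little from each other, with a coefficient of variation of 2.13%, against 19.8% in JQ1, where replicate 3 was the lowest. LCK (ENSG00000182866.16) lies on the plus strand of chromosome 1, from 32251239 to 32286165 on GRCh38.

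FYN, the SRC family kinase that shares many substrates with LCK in T cells, moved the other way. Its level was 100.4, 119 and 125 CPM in DMSO replicates 1, 2 and 3, and 168, 172 and 182 CPM in the JQ1 replicates. All JQ1 libraries were above all DMSO libraries, though the gap between the nearest was only 1.34-fold. The rise was 1.51-fold (95% interval 1.3 to 1.76, edgeR adjusted p = 0.00121). A test against a change of 1.5-fold in place of no change did not call FYN (edgeR adjusted p = 0.881). FYN (ENSG00000010810.17) spans 111660332 to 111873452 on the minus strand of chromosome 6.

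**Figure D1:**
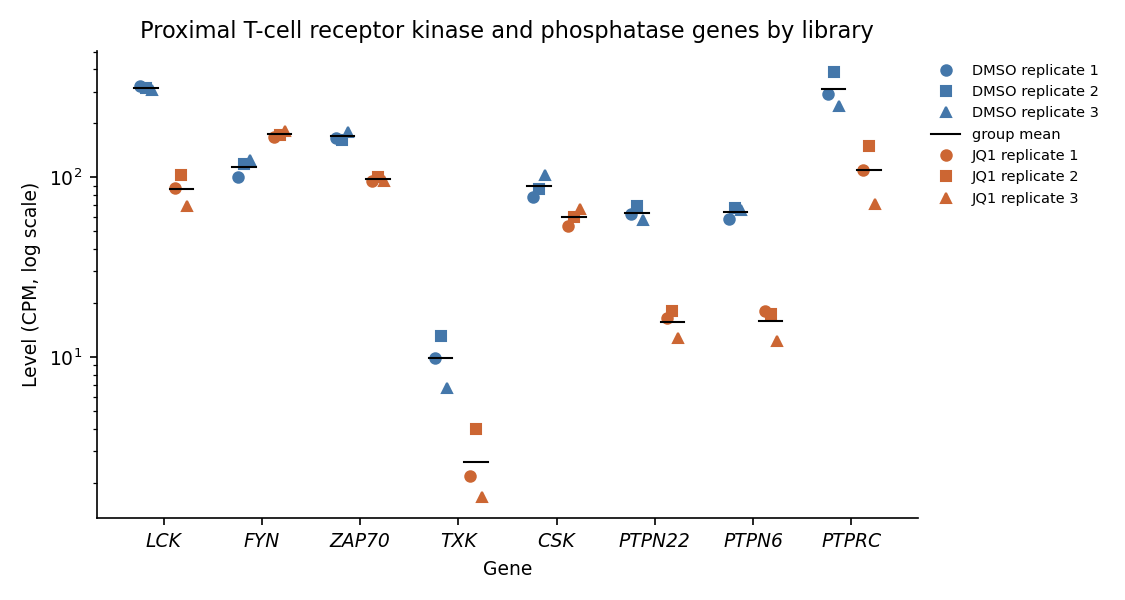
Level in CPM on a log axis of the 8 tested genes in each library, with DMSO in blue, JQ1 in orange, replicates 1 to 3 as circle, square and triangle, and group means as black lines. FYN is the gene whose JQ1 points lie above its DMSO points; for the other 7 genes they lie below.

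Levels of different genes can be compared only per length, here as CPM per kb of exon, with the exons of all transcripts of a gene merged. In DMSO, LCK stood at 94.1 ± 2.0 per kb (SD, n = 3), far above PTPRC (33.7 ± 7.54) and ZAP70 (33.1 ± 1.73), whose libraries overlapped. CSK (19.5 ± 2.86) and FYN (15.5 ± 1.75) came next, without overlap between them, then PTPN22 (14.1 ± 1.25) and PTPN6 (12.8 ± 0.937), and TXK was lowest (2.85 ± 0.912). FYN overlapped with PTPN22, and PTPN22 with PTPN6. In JQ1 the order per kb became LCK (25.9 ± 5.13), FYN (23.5 ± 0.992), ZAP70 (19.0 ± 0.554), CSK (13.2 ± 1.39), PTPRC (12 ± 4.26), PTPN22 (3.49 ± 0.604), PTPN6 (3.16 ± 0.626) and TXK (0.753 ± 0.350). LCK and FYN overlapped there, as did CSK with PTPRC and PTPN22 with PTPN6. FYN, well below LCK, PTPRC and ZAP70 in DMSO, thus had a level within the range of LCK in JQ1. These orders and overlaps are for merged exons, and part of them changes with another length. PTPN6 and PTPN22 had 63.9 and 63.4 CPM in DMSO, on merged exons of 5.009 and 4.503 kb. Their longest protein-coding transcripts are 2.389 and 3.654 kb, and by that length PTPN6 comes above PTPN22.

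The ratio of LCK to FYN per kb within a library was 7.10, 5.86 and 5.44 in DMSO replicates 1, 2 and 3. In JQ1 replicates 1, 2 and 3 it was 1.16, 1.33 and 0.840. The ratio of LCK to CSK was 4.89 ± 0.786 in DMSO and 2.0 ± 0.506 in JQ1 (SD, n = 3 per group), without overlap. LCK to PTPRC was 2.87 ± 0.580 in DMSO and 2.25 ± 0.385 in JQ1, with overlapping libraries. The exact 2-sided permutation test over libraries, which with 3 against 3 cannot give less than 0.1, gave p = 0.1 for LCK to FYN, 0.1 for LCK to CSK and 0.2 for LCK to PTPRC (0.15, 0.15 and 0.2 adjusted over the 3 ratios), so no ratio could pass the threshold. With the length of the longest protein-coding transcript in place of all exons, the LCK to FYN ratio was 4.63 ± 0.648 in DMSO and 0.838 ± 0.189 in JQ1, so which of them is the higher under JQ1 depends on the length used.

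**Figure D2:**
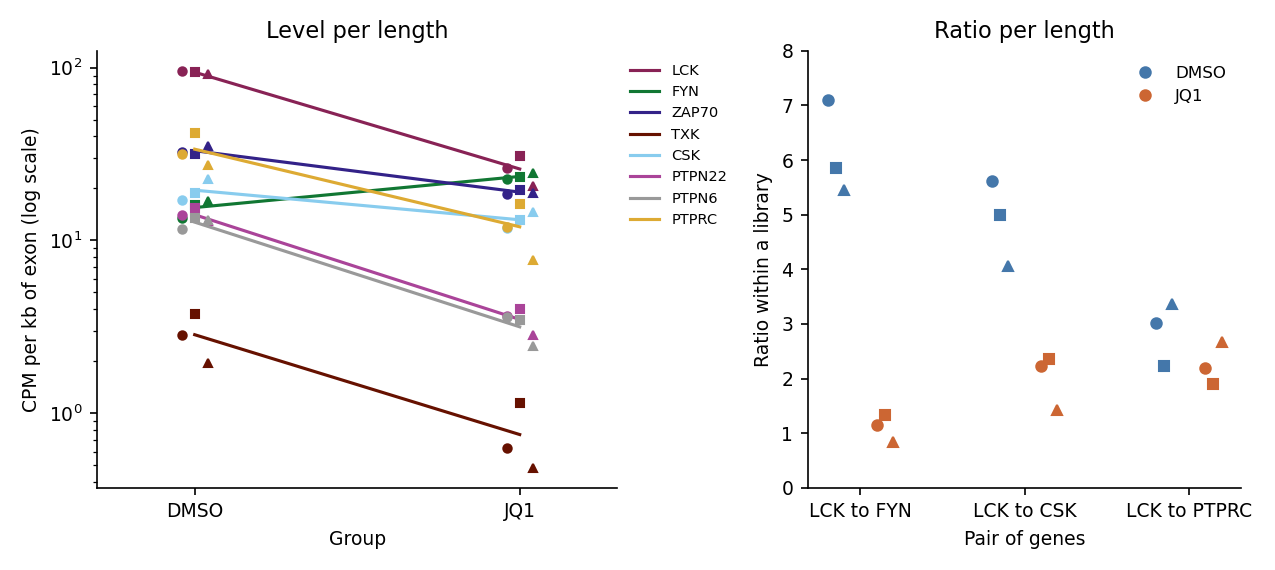
Left, CPM per kb of exon on a log axis for the 8 tested genes, 1 point per library (replicates 1 to 3 as circle, square and triangle) with a line through the group means. Right, the ratio of LCK to FYN, CSK and PTPRC per kb within each library, in which LCK to FYN lies between 5.44 and 7.10 in DMSO and between 0.840 and 1.33 in JQ1.

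The sequence before the start sites is shown for LCK and PTPN22, which fell, and for FYN, which rose. These genes were picked for their contrast, and only the first of the 4 FYN starts is printed, so the stretches do not stand for the other members. RefSeq starts (GRCh38.p14) were found for 8 of the 9 genes, 15 starts in all. LCK has a distal and a proximal promoter, a known feature of the gene, and the stretches from both are given. Each is written 5′ to 3′ on the strand of the gene, ends where the first annotated exon begins, and has in capitals the letters of the motifs searched: TGTGGT (the core bound by RUNX factors) and GGGCGG (the GC box) or their reverse complements.
LCK distal, chr1:32251089-32251238, plus strand: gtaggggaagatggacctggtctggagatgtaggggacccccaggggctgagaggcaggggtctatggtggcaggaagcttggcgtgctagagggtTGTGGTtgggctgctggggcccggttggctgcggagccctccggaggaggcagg
LCK proximal, chr1:32273961-32274110, plus strand: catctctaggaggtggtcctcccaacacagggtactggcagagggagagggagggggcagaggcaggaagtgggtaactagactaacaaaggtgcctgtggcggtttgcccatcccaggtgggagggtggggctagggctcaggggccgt
PTPN22, chr1:113871760-113871909, minus strand: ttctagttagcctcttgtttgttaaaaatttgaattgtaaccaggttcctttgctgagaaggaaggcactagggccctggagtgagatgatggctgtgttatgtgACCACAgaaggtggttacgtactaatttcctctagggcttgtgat
FYN first start, chr6:111873453-111873602, minus strand: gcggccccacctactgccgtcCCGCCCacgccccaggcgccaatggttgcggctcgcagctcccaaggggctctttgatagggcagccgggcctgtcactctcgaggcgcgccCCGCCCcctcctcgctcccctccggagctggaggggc

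In these 150 bases the first start of FYN has 14 CG pairs, the distal LCK stretch 4, the proximal one 2 and PTPN22 1. In the whole 250 bases before a start, the 11 starts of the 7 genes that fell held between 1 and 11 CG pairs, none above the median of 11 over 35116 RefSeq promoters of the same length. PTPN22 held 3, while the 2 starts of PTPN6, a gene that fell as far and is not printed, held 10 and 8. The only CSK window, chr15:74788294-74788543, lies inside the annotated gene, which runs from 74782057 to 74803198. The bases before the annotated 5′ end of CSK were therefore not counted. The starts of FYN, in the order of transcription, held 20, 45, 6 and 0 CG pairs. For FYN and for the other genes, the counts do not say which start is used in ALL-SIL. On either strand TGTGGT was present before 2 of the 15 starts (LCK distal and PTPN22) and in 11% of all promoters. GGGCGG was present before 5 of the 15 and in 42.6% of all promoters. The 5 were starts 1 and 2 of FYN, which rose, and start 3 of ZAP70 and starts 1 and 2 of PTPN6, which fell. CCGGAA (ETS factors; 1 start, 14.5% of all promoters), CACGTG (MYC; 1 start, 6.34%), CAGCTG (E proteins; 3 starts, 14.0%) and TATAAA (1 start, 10.7%) were also searched on both strands, and no searched motif has the letters of another. A match is a description of the letters and not of binding.

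**Figure D3:**
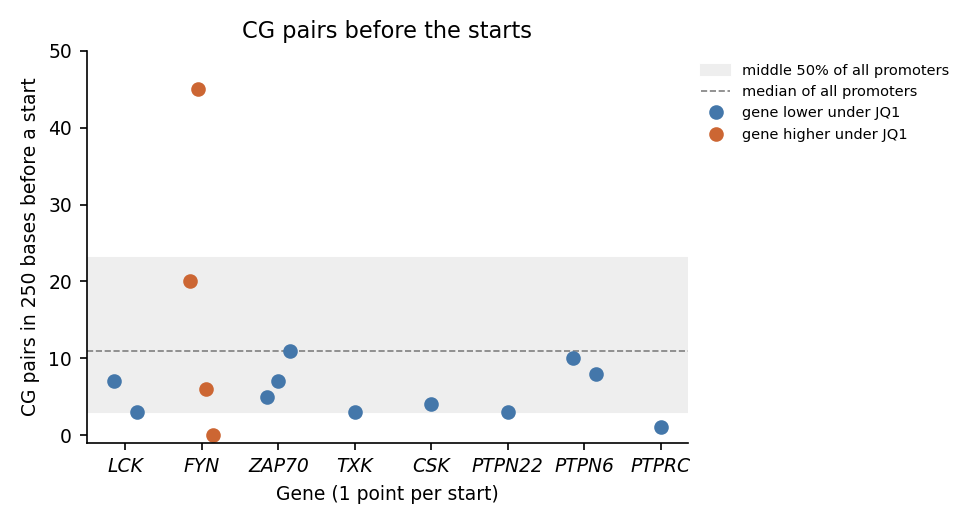
CG pairs in the 250 bases before each RefSeq start of the 8 matched genes, 1 point per start, in blue for genes that fell and in orange for FYN, with the median (dashed) and the middle 50% (grey) of 35116 promoters. The first 2 starts of FYN, at 20 and 45, lie above the median of 11, and no start of the other genes does. The CSK point comes from a window inside the annotated gene.

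ZAP70, which binds the phosphorylated CD3 and zeta chains, fell less than LCK. It had 166, 162 and 179 CPM in DMSO replicates 1, 2 and 3 and 95.5, 101 and 95.8 CPM in JQ1 replicates 1, 2 and 3. The groups were tight and well apart, with coefficients of variation of 5.23% and 2.91%. The fall was 1.74-fold (95% interval 1.53 to 1.97, edgeR adjusted p = 8.00e-05). ZAP70 (ENSG00000115085.13) lies at 97713560 to 97739862 on chromosome 2. SYK, its close relative in B cells and early thymocytes, had no read in any library, which allows up to 0.114 to 0.193 CPM per library (3 counts, counting error only).

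TXK, a TEC family kinase of T cells that acts on PLCG1, was the least abundant tested member. It had 9.85, 13.1 and 6.74 CPM in DMSO replicates 1, 2 and 3 and 2.18, 3.99 and 1.68 CPM in JQ1 replicates 1, 2 and 3. The groups stayed apart although the libraries within each varied widely (coefficients of variation of 32.0% and 46.5%). The fall was 3.73-fold with a broad 95% interval of 2.22 to 6.27 (edgeR adjusted p = 0.00212), on 711 reads in DMSO and 165 in JQ1. TXK (ENSG00000074966.10) lies at 48066393 to 48134256 on chromosome 4.

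CSK, the kinase that switches LCK and FYN off, had the smallest fall. It had 78.1, 86.1 and 103.7 CPM in DMSO replicates 1, 2 and 3 and 53.9, 60.1 and 66.6 CPM in JQ1 replicates 1, 2 and 3. The groups did not overlap, but the highest JQ1 library was only 1.17-fold under the lowest DMSO library. The fall was 1.49-fold (95% interval 1.24 to 1.79, edgeR adjusted p = 0.00420), and it was not called against a change of 1.5-fold (edgeR adjusted p = 1.00). CSK (ENSG00000103653.16) lies at 74782057 to 74803198 on chromosome 15. PAG1, the transmembrane adaptor that brings CSK to lipid rafts, had 1 read in JQ1 replicate 1, 1 read in DMSO replicate 3 and none in the other 4 libraries. This is below the 3 counts set as a floor, so no fold is given for PAG1 and a difference was not detectable at this depth.

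PTPN22, the phosphatase that partners with CSK and dephosphorylates LCK and ZAP70, had the largest fall. It had 62.8, 69.4 and 58.1 CPM in DMSO replicates 1, 2 and 3 and 16.5, 18 and 12.7 CPM in JQ1 replicates 1, 2 and 3. The highest JQ1 library was 3.23-fold under the lowest DMSO library. The fall was 4.01-fold (95% interval 3.27 to 4.92, edgeR adjusted p = 7.72e-06), the 322nd lowest log2 change of 13975. PTPN22 (ENSG00000134242.15) lies at 113813811 to 113871759 on the minus strand of chromosome 1, where annotated antisense genes overlap it. The count on the opposite strand of PTPN22 was 0 to 4 reads per library.

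PTPN6 encodes SHP-1, which is recruited to inhibitory receptors and opposes receptor signalling in blood cells. It had 58.6, 67.4 and 65.8 CPM in DMSO replicates 1, 2 and 3 and 18, 17.3 and 12.2 CPM in JQ1 replicates 1, 2 and 3. The groups were as far apart as those of PTPN22, and JQ1 replicate 3 was the lowest for both. The fall was 4.01-fold (95% interval 3.23 to 4.97, edgeR adjusted p = 1.05e-05). PTPN6 (ENSG00000111679.16) lies at 6946468 to 6961316 on chromosome 12.

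PTPRC encodes CD45, the abundant surface phosphatase that opens the inhibitory site of LCK. It had 291, 386 and 251 CPM in DMSO replicates 1, 2 and 3 and 109.7, 149 and 71.1 CPM in JQ1 replicates 1, 2 and 3. The groups did not overlap, but the libraries within each differed more than for the other abundant members, with coefficients of variation of 22.4% and 35.5%. The fall was 2.81-fold with a 95% interval of 1.79 to 4.41 (edgeR adjusted p = 0.00535). Without a filter on low counts, with 26447 genes tested in all, the PTPRC fall was of the same size but was not called (log2 change -1.51, edgeR adjusted p = 0.0607). The PTPRC gene (ENSG00000081237.18) is on chromosome 1, and its annotation version differs from the release used, so its ends are not given.

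For 5 of the 8 genes the same replicate number was the highest in both groups. The share of all tested genes with this pattern was not computed, so the count is only a description. Replicate 2 was the highest of its group in both JQ1 and DMSO for PTPRC, TXK and PTPN22, and replicate 3 was the highest in both for CSK and FYN. Compared number by number, the log2 change of PTPRC was -1.41, -1.37 and -1.82 for numbers 1, 2 and 3, and that of LCK was -1.87, -1.61 and -2.16. For FYN it was 0.74, 0.53 and 0.54. The direction was the same in 3 of 3 numbers for each of the 8 genes, which follows from groups that do not overlap.

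**Figure D4:**
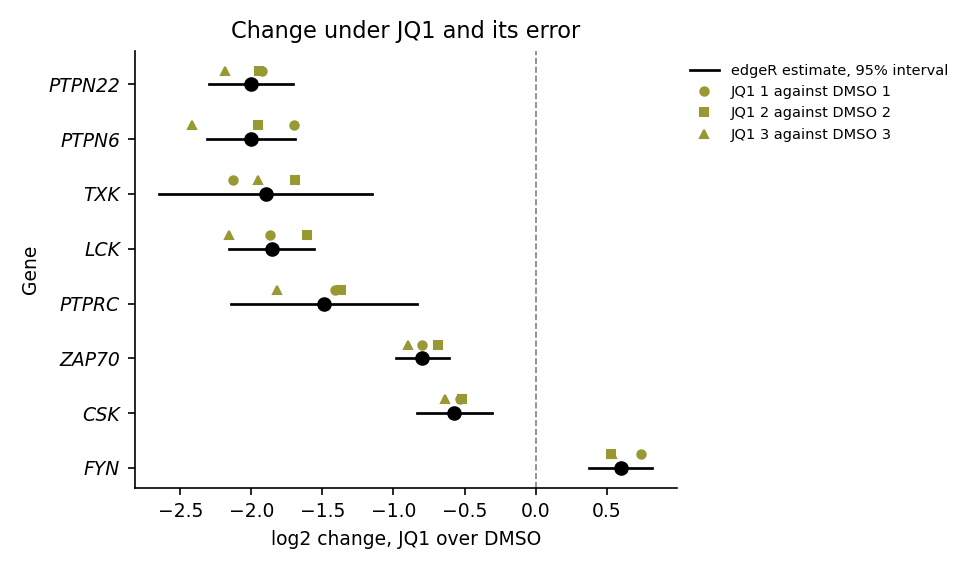
log2 change of JQ1 over DMSO for the 8 tested genes, with the edgeR estimate and its 95% interval in black and, in olive, JQ1 replicates 1, 2 and 3 each against the DMSO replicate of the same number. The intervals of TXK and PTPRC are the widest, and FYN, at 0.60, is the gene to the right of 0.

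Reads on the opposite strand were few, from 0 to 10 per member and library, and made up at most 0.598% of both strands, in PTPN6. The exact permutation test of 3 against 3 libraries cannot give less than 0.1, so it could not show a difference on that strand; its smallest unadjusted p was 0.2.

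The genes around these enzymes were taken as lists by role. Of 12 other kinases of the SRC, SYK and TEC families, 9 were too low to test, among them SYK, FRK and BMX with no read at all. Of the tested ones, YES1 (log2 change 0.14 ± 0.09 SE) and TEC (-0.00 ± 0.13) did not pass the test (edgeR adjusted p = 0.255 and 0.998). LCK and FYN were therefore, with YES1, the SRC family members that could be tested in these libraries. Counts of genes called higher in this list were 0 by edgeR, 0 at an unadjusted p under 0.05, and 0 by DESeq2 and limma-voom. By edgeR 15.9% of all tested genes were higher.

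Of 14 tested phosphatases outside the members, 6 fell and 3 rose, with a median log2 change of -0.21. Of all tested genes 20.6% fell and 15.9% rose, so the number that rose was near that share. With the replicate number as a block 8 were lower and 3 higher, against 29.6% and 27.3% of all tested genes. PTPN2 and INPP5D were added there (edgeR adjusted p = 0.0299 and 0.000761), and INPP5D was also called without JQ1 replicate 3 (0.00521). PTPN7, a phosphatase of ERK and p38 in blood cells, went down from 245 ± 23.7 CPM in DMSO to 51.8 ± 11.7 CPM in JQ1, by -2.24 ± 0.15 (SE) on the log2 scale. UBASH3B (STS-1), which dephosphorylates ZAP70, fell from 320 ± 41.0 to 105 ± 21.8 CPM and its relative UBASH3A from 43.5 ± 5.79 to 17.3 ± 2.82 CPM (edgeR adjusted p = 6.24e-05 and 9.60e-05). PTPN12 (PTP-PEST) rose from 3.93 ± 0.106 CPM in DMSO to 9.66 ± 0.409 CPM in JQ1 (edgeR adjusted p = 0.000136). PTPN1 and PTPRA also rose, by log2 changes of 0.47 and 0.36, and the PTPRA call was lost without JQ1 replicate 1 (0.34, edgeR adjusted p = 0.0538). Of the falls, that of PTPN4 was lost in 5 of the 6 fits without a library (all but that without DMSO replicate 3) and that of PTPRJ without JQ1 replicate 1, DMSO replicate 2 or DMSO replicate 3, with edgeR adjusted p between 0.0513 and 0.154. PTPN11 (SHP-2), the relative of PTPN6, had 235 CPM in DMSO and 239 in JQ1 and was not called (edgeR adjusted p = 0.873).

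Of 11 tested receptor chains and coreceptors, 10 fell and 0 rose, against 20.6% and 15.9% of all tested genes. The median log2 change of the list was -1.65. CD8A, which holds LCK, fell from 38.2 ± 5.11 to 12.1 ± 1.37 CPM (edgeR adjusted p = 2.16e-05), and CD8B from 2.98 ± 0.759 to 0.663 ± 0.313 CPM. The costimulatory receptor CD28 fell from 18.3 ± 4.53 to 2.93 ± 1.49 CPM. The adhesion receptor CD2 fell from 102 reads summed over the DMSO libraries to 4 in JQ1. Smaller falls were those of CD4, the other coreceptor of LCK, and of CD3D, CD3E and CD3G. Their log2 changes were -0.59, -0.52, -0.88 and -0.66. CD247, the zeta chain that ZAP70 binds, was the member not called, with 179 and 157 CPM (log2 change -0.19 ± 0.12, edgeR adjusted p = 0.238, 0.00955 with the replicate number as a block, and 0.0429 without JQ1 replicate 2). The number higher was also 0 at an unadjusted p under 0.05 in edgeR and by DESeq2 and limma-voom. Against a change of 1.5-fold 6 of the 11 were lower and 0 higher, against 6.43% and 1.76% of all tested genes.

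Of 20 tested adaptors and effectors, 15 fell and 0 rose in edgeR, against 20.6% and 15.9% of all tested genes. The median log2 change of the list was -1.24. At an unadjusted p under 0.05, 1 was higher, and DESeq2 and limma-voom called 0 higher. With the replicate number as a block 2 were higher, PLCG1 and NCK1, against 27.3% of all tested genes. PLCG1 was also called without DMSO replicate 3 (edgeR adjusted p = 0.0267). GRAP2 (GADS), which links LAT to LCP2, fell from 122 ± 16.4 to 30.7 ± 3.45 CPM, and LCP2 (SLP-76), a ZAP70 substrate, from 44.1 ± 4.67 to 16.5 ± 2.40 CPM. LAX1, a negative adaptor, had a log2 change of -1.63 ± 0.14, and FYB1 (ADAP), a FYN-binding adaptor, one of -1.06 ± 0.09 (edgeR adjusted p = 2.67e-05 and 3.59e-05). GRB2, NCK2 and PRKCQ were not called in edgeR, nor were PLCG1 and NCK1, with log2 changes between -0.44 and 0.26 for the 5 genes. PRKCQ was called lower with the block (edgeR adjusted p = 0.0479) and without JQ1 replicate 2 (0.0225). The THEMIS call was lost in 5 of the 6 fits without a library, all but that without JQ1 replicate 2 (edgeR adjusted p up to 0.128), and with the block (0.0518). The LIME1 call was lost without JQ1 replicate 1, JQ1 replicate 3 or DMSO replicate 3 (edgeR adjusted p up to 0.0911).

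Of 10 tested ubiquitin ligases, chaperones and lipid-transfer genes that act on LCK or ZAP70, 2 fell and 4 rose, with a median log2 change of 0.25. Of all tested genes 20.6% fell and 15.9% rose, so the number that fell was near that share. With the replicate number as a block 2 were lower and 6 higher, against 29.6% and 27.3% of all tested genes. The ligases CBL and CBLB were added there (edgeR adjusted p = 0.00163 and 0.0447), and CBL was also called without DMSO replicate 3 (0.0454). SLA (SLAP) and SLA2, adaptors that direct receptor chains to degradation, fell from 60.0 ± 5.64 to 11.3 ± 2.42 CPM and from 93.8 ± 16.0 to 23.7 ± 6.64 CPM (edgeR adjusted p = 6.38e-06 and 0.000233). UNC119, a lipid-binding chaperone of LCK and FYN, rose from 4.47 ± 0.723 to 9.87 ± 1.94 CPM (edgeR adjusted p = 0.00130), and NMT2, which attaches myristate to SRC family kinases, from 68.2 ± 4.97 to 126 ± 13.7 CPM (edgeR adjusted p = 0.000135). The kinase cochaperone CDC37 rose by 0.33 and the chaperone HSP90AA1 by 0.37 on the log2 scale. NMT1 and HSP90AB1, with higher DMSO levels than NMT2 and HSP90AA1, were not called. Their log2 changes were -0.04 and -0.12 (edgeR adjusted p = 0.752 and 0.629). The HSP90AA1 call was lost in 5 of the 6 fits without a library, all but that without DMSO replicate 1 (edgeR adjusted p 0.0531 to 0.0996), and its near-identical copies make its count uncertain.

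**Figure D5:**
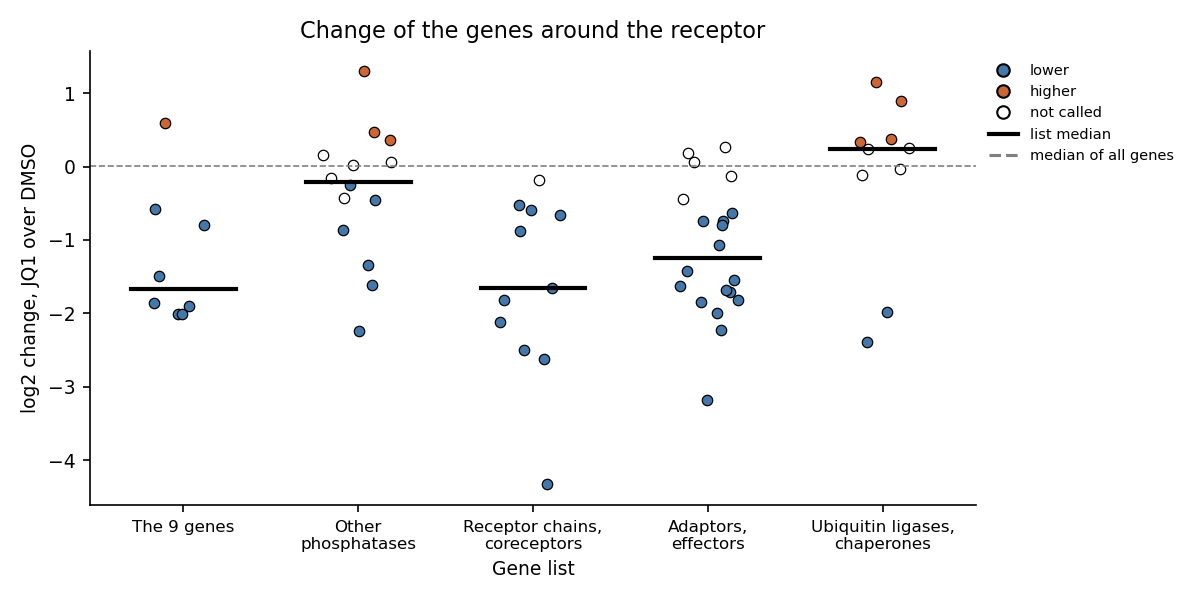
log2 change of JQ1 over DMSO for each tested gene of the 9 and of 4 lists by role (kinases outside the 9 not shown), filled blue where lower, orange where higher and white where not called at an edgeR adjusted p of 0.05; thick lines are list medians and the dashed line is the median of all tested genes. The medians lie at -1.65 for receptor chains and -1.24 for adaptors, against -0.21 for other phosphatases and 0.25 for ubiquitin ligases and chaperones.

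The protein-coding genes most like PTPN22 and FYN over the 6 libraries were sought among 9045 genes with a mean of at least 5 CPM by Pearson correlation of log2 CPM. The libraries form 2 separate groups, so the values are only a description, with no test. For PTPN22 they were ACSL5 (0.9998), an acyl-CoA synthetase, ECE2 (0.9993) and PWWP2B (0.9992). ACSL5 fell further than PTPN22, from 57.1 ± 10.2 to 5.12 ± 1.52 CPM. For FYN they were CPLANE1 (0.9973), a gene of ciliogenesis, C18orf54 (0.9942) and UBN2 (0.9931). CPLANE1 rose from 66.0 ± 8.25 to 108 ± 4.63 CPM.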

How the data were processed

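The deposited values are unnormalised whole-number counts per gene, unstranded and by strand, laid out as STAR writes gene counts, which omit reads that map to more than 1 place or gene. GRCh38 is named per the submitters' processing notes. The sources used here do not give the aligner or the annotation release. The reverse-strand column was used, with 20.9 to 22.6 times the counts of the other. Each file opens with 4 totals that name no gene and were not analysed. Multimapping reads made up 14.1% to 15.7% of all reads. Reads that overlapped no annotated exon on the counted strand made up 18.8% to 26.1%. Symbols and positions come from GENCODE release 29 (57492 of 58096 identifiers matched), promoters from RefSeq.

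Genes passing filterByExpr (minimum count 10, total 15; 13975 genes) were scaled by TMM. The test was edgeR 4.0.16 under R 4.3.3 (robust glmQLFit with the group as the only term, then glmQLFTest), and p-values were adjusted by Benjamini-Hochberg over all these genes. SE is the log2 change over the square root of F. Ratios used exact permutation tests. The procedure was also run on simulated counts, with dispersions fitted on these data and libraries independent of each other. Far fewer genes were changed there than were called here, so its outcome is not used as support. Libraries of the same group differed by more than counting noise, so none was treated as a library deposited again; this does not show that they came from separate cultures. The 95% intervals come from the fit and include the scatter between libraries; floors cover counting error only.

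The members and lists were chosen with earlier results of these data known. Named genes were the 9 members, MYC and HEXIM1, and up to 4 genes per list with the smallest p. Genes called higher were named where there were at most 2, as were the 3 genes most like the largest fall and rise. Other list genes are named to account for small counts or for contrast, and were chosen after their values were seen. Libraries with the same replicate number deviated together from their group means (correlations of 0.33, 0.43 and 0.37), a pairing read from the data and not from the labels. The block was an alternative, as were DESeq2 1.42.0, limma-voom (limma 3.58.1), other scalings and filters, unstranded counts, omission of mitochondrial and small RNA genes, a test against 1.5-fold and each library left out. Some genes of the list of other kinases are not reported here.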

Additional observations from a re-analysis of the deposited data

How the results depend on the processing

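The 8 tested members kept their direction under all 17 alternatives, and 133 of 136 member values kept their side of the threshold. The exceptions are FYN and CSK against a change of 1.5-fold, and PTPRC with no filter on low counts (6 members lower), where 26447 genes were tested; values are given above. Against 1.5-fold 6 members were lower and 0 higher by edgeR (0 also at an unadjusted p under 0.05), with 899 genes lower (6.43% of those tested) and 246 higher (1.76%) in all. With the replicate number as a block 7 members were lower and 1 higher, and 3813 genes were higher (27.3%) and 4133 lower (29.6%). The block, which pairs libraries by number, changed no call on a member. The SE of PTPRC was 0.08 with the block and 0.28 without. In the 6 fits without a library the members called were 7 lower and 1 higher in each. The log2 change of the LCK to FYN ratio ran from -2.63 to -2.29 without a library, LCK to CSK from -1.45 to -1.08 and LCK to PTPRC from -0.52 to -0.22. The transcript length was an alternative chosen after seeing the data; it leaves these log2 changes as they are. At this depth PAG1 and 9 of 12 kinases outside the members could not be tested.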
